A study of Mus musculus with 14 samples.

Results

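The 10 genes described here encode enzymes that make serine, move its side-chain carbon onto folate, and make phosphoenolpyruvate in mitochondria. They are Phgdh, Psat1, Psph, Shmt1, Shmt2, Mthfd1, Mthfd1l, Mthfd2, Aldh1l2 and Pck2. All 10 were found by gene symbol among the 23599 genes used in the first set of libraries and the 54540 used in the second. The group was chosen by a readout of the same data, since it was selected on the higher Shmt2 and Pck2 values after compound OB. The members' values in that contrast are therefore a description without a test, and the members are tested for the other compound alone.

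RNA was sequenced from cultured BFU-E, burst-forming unit-erythroid cells, which are early progenitors of red blood cells. They came from the fetal liver of C57BL/6 mice and were kept in StemSpan SFEM II medium. The OB set has 3 libraries given DMSO solvent (OB DMSO) and 3 given compound OB at 100 µM. The PD set has 3 libraries with DMSO (PD DMSO) and 3 given compound PD at 3 nM, so that each compound has its own controls. Both compounds are known here by code name only. The labels do not say that replicates were separate cultures or animals, so p-values measure only the spread between these samples, which may be technical. The 2 chromatin samples of the series, a CREB immunoprecipitation and its input, are not analysed here.

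Serine is made from a glycolytic intermediate by Phgdh, Psat1 and Psph in turn. Serine hydroxymethyltransferase then splits it to glycine and passes a carbon unit to tetrahydrofolate, with Shmt1 in the cytosol and Shmt2 in mitochondria. In mitochondria Mthfd2 oxidises that unit and Mthfd1l releases it as formate, while Aldh1l2 oxidises the unit fully. The formate leaves for the cytosol and is reattached to folate there by Mthfd1 for purine and thymidylate synthesis. Glycine from this route feeds haem synthesis in erythroid cells. Pck2, mitochondrial phosphoenolpyruvate carboxykinase, makes phosphoenolpyruvate from oxaloacetate. Several of these genes are known targets of ATF4, the transcription factor of the amino acid response.

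The stretch of DNA just before the start of Pck2 and of Shmt2 is shown because these are the members the group was selected on, and because they differ in 1 sequence feature. Both are from the RefSeq table of GRCm38.p6, the assembly behind mm10, and hold the 250 bases before the start given in that table, 5′ to 3′ on the gene's own strand. Capitals mark the match to TGATGNAA, the core of the C/EBP-ATF response element that ATF4 binds, read on either strand.
Pck2, chr14:55540016-55540265, plus strand: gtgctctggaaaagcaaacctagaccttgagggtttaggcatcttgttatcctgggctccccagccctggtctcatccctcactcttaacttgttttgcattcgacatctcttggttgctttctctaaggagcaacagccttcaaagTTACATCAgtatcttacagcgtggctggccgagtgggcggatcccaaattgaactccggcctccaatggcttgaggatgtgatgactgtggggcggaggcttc
Shmt2, chr10:127522445-127522694, minus strand: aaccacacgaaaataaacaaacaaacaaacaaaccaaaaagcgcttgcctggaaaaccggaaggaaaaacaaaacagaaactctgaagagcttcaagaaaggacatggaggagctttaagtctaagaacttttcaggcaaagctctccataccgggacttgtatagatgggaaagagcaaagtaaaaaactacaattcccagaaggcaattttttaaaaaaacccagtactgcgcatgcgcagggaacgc
In the Pck2 stretch the match TTACATCA lies 103 bases before the start and reads on the opposite strand. The Shmt2 stretch has none.

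The table held 10 windows of 300 bases, from 250 before to 50 after a start, for 9 of the 10 members. TGATGNAA, N being any base, was present in the Pck2 window alone among them, and in 3.97% of all 32851 windows. Neither TGACGTCA, the site known as CRE that CREB binds, nor CACGTG, the E-box bound by factors such as Myc, was found in any member window. Those letters occur in 1.79% and 7.15% of all windows, and none of the motifs overlaps another in a member window. The match is a description of letters, and no binding was measured here. For comparison, 30 bases around the match are given for Pck2 and for 3 genes known as ATF4 targets, each with its match in capitals on the gene's own strand.
Pck2, chr14:55540152.0-55540181.0, plus strand: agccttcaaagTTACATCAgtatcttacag
Trib3, chr2:152344028.0-152344057.0, minus strand: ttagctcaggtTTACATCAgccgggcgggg
Chac1, chr2:119351038.0-119351067.0, plus strand: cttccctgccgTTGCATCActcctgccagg
Asns, chr6:7693214.0-7693243.0, minus strand: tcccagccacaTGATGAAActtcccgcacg
Pck2 and Trib3 carry the same 8 letters, while the match of Trib3 starts 15 bases into the gene and those of Chac1 and Asns lie 193 and 23 bases before it. The 3 comparison genes are examples, and the share of known ATF4 targets with a match was not counted.

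The members lie on 8 chromosomes in the GRCm38.p6 annotation. The serine synthesis genes are Phgdh at chr3:98313171-98339969, Psat1 at chr19:15905123-15925059 and Psph at chr5:129765558-129787443. Shmt1 spans chr11:60788897-60811265 and Shmt2 chr10:127517123-127522444. The folate enzymes are Mthfd1 at chr12:76254406-76319820, Mthfd1l at chr10:3972892-4167081, Mthfd2 at chr6:83305704-83326011 and Aldh1l2 at chr10:83487447-83534146, and Pck2 spans chr14:55540263-55550020. Psph overlaps Cct6a and Shmt2 overlaps Ndufa4l2, and Mthfd1, Mthfd1l and Aldh1l2 overlap predicted genes. Whether strand was used in counting is not given in the sources used here, so the values of these 5 members can hold reads of their neighbours. A start used for the sequence windows need not be the outer end of a gene's span. The Mthfd1 and Mthfd2 windows lie wholly within their genes' spans, and the last bases of the Pck2 stretch lie within the Pck2 span.

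Levels are given as FPKM (fragments per length of gene, scaled for the fragments mapped in the library), as the authors deposited them. Expression of the labelled cell type's markers was present: all 12 early erythroid progenitor genes reached 1 FPKM in at least 1 library of each group, although Cd34 was between 0.26 and 1.40 FPKM in the OB set, and all 6 hepatocyte genes stayed under 1 FPKM in every library. Some libraries stand apart. Both replicate 1 libraries of the OB set had Cdkn1a, a p53 target, at 321 and 227 FPKM, against 67.5 to 81.9 in the other 4. OB DMSO replicate 2 held 12380 FPKM of ribosomal Rn45s, against 175 to 955. PD DMSO replicate 1 had the globin gene Hbb-bt at 30180 FPKM against 9235 to 17213, and Myb, a progenitor transcription factor, at 17.7 against 33.5 to 47.3. Compound PD replicate 1 had the lowest Hbb-bt of its set, at 9235 FPKM. It also had Klf1, an erythroid progenitor gene, at 125 against 168 to 204, and Mpo, a granulocyte precursor gene, at 933 against 422 to 560. Some of the results that rest on these libraries are given with and without them.

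**Figure D1:**
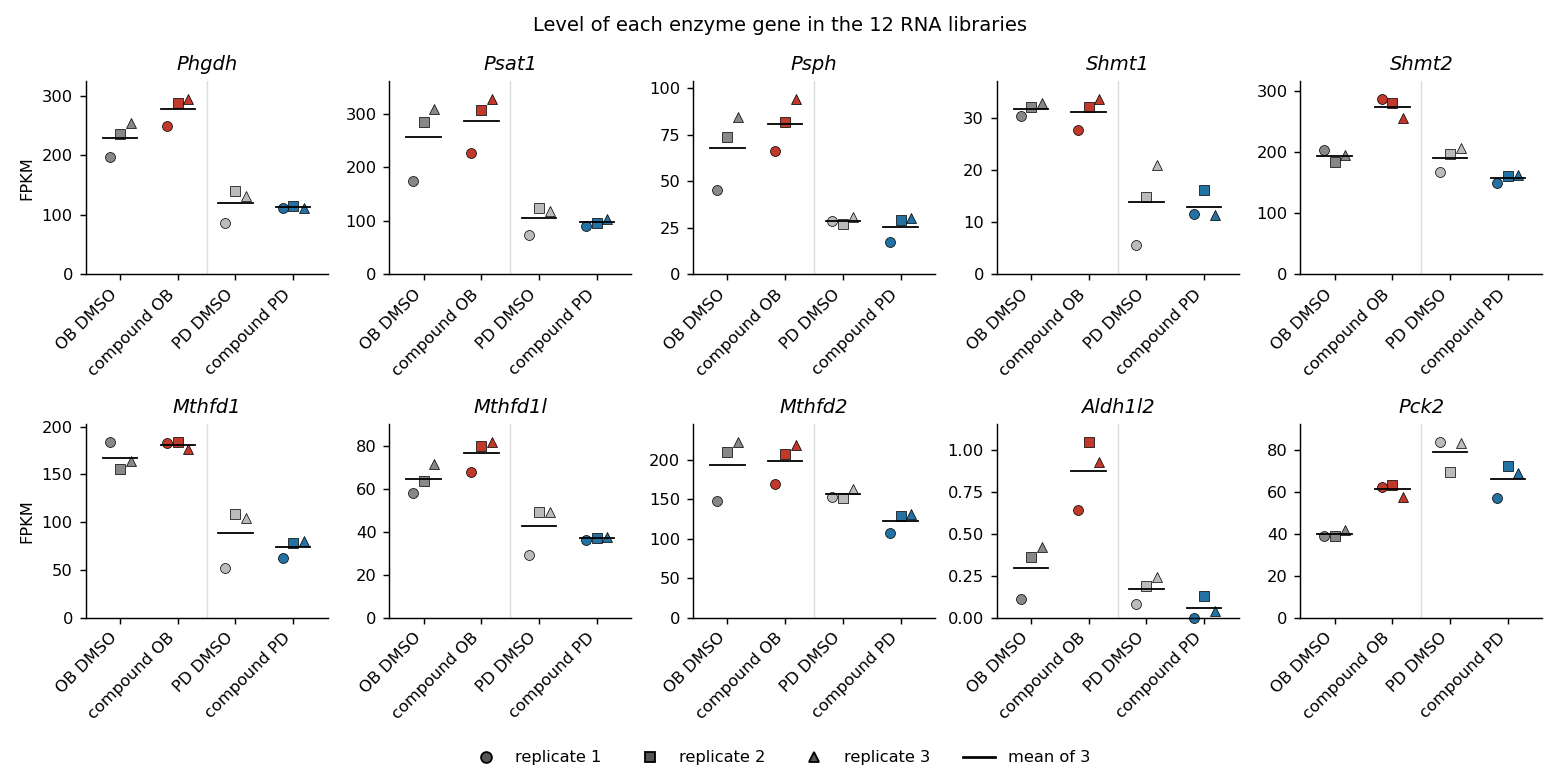
Level of each of the 10 genes in FPKM (vertical axis, linear from 0, a separate scale per gene) in the 4 groups of 3 libraries. Symbols give the replicate number and lines the mean. Shmt2 and Pck2 have every compound OB library above every OB DMSO library, and in Phgdh, Psat1, Shmt1, Mthfd1 and Mthfd1l the PD DMSO replicate 1 library is the lowest of the 6 in its set, with Shmt1 at 5.57 against 14.9 and 21.0 FPKM.

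Psat1 and Phgdh, of the serine synthesis branch, had the highest mean levels of the members in the OB set, and Psph stood sixth. In OB DMSO, Psat1 stood highest at 255 ± 71.6 FPKM (SD, n = 3), followed by Phgdh at 229 ± 29.0, Shmt2 at 194 ± 10.1, Mthfd2 at 193 ± 39.8 and Mthfd1 at 167 ± 14.4. Among these 5, each overlapped the next in that order. Psph (68.0 ± 20.5) and Mthfd1l (64.6 ± 6.85) overlapped each other, and Pck2 (39.9 ± 1.58) and Shmt1 (31.9 ± 1.29) followed apart from both. Aldh1l2 was near 0, at 0.30 ± 0.16 FPKM.

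The order was different in PD DMSO. Shmt2 stood highest there at 190 ± 20.9 FPKM, above Mthfd2 at 156 ± 6.37, with no overlap between them. Phgdh (119 ± 29.0), Psat1 (105 ± 27.7), Mthfd1 (88.3 ± 31.2) and Pck2 (78.8 ± 8.12) followed, each overlapping the next of these 4. Mthfd1l (42.6 ± 11.7) overlapped Psph (28.8 ± 1.71), and Shmt1 (13.8 ± 7.78) and Aldh1l2 (0.17 ± 0.08) were last. The files of the 2 sets list different numbers of genes, and the markers of their controls differ: the summed FPKM of 9 neutrophil and granulocyte precursor genes was 144 to 578 in OB DMSO and 11362 to 17167 in PD DMSO. Levels across the sets are set side by side and no test was made of them.

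For the steps that exist in both compartments, the mitochondrial member made up most of the summed FPKM of serine hydroxymethyltransferase. The share of Shmt2 in Shmt1 plus Shmt2 was 85.9% ± 0.99 (SD, n = 3) in OB DMSO, 89.7% ± 1.43 after compound OB, 93.5% ± 3.03 in PD DMSO and 92.4% ± 1.34 after compound PD. Formate handling leaned the other way: Mthfd1l was 27.9% ± 3.40 of Mthfd1 plus Mthfd1l in OB DMSO and 33.1% ± 2.39 in PD DMSO. Pck1, the cytosolic counterpart of Pck2, was listed at 0.09 FPKM or less in all 12 libraries. Mthfd2l, the close relative of Mthfd2, had means of 2.49 FPKM in OB DMSO and 5.21 in PD DMSO, so that Mthfd2 held 98.7% and 96.8% of their sum.

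After compound OB, the mitochondrial enzymes Shmt2 and Pck2 and the scarce Aldh1l2 had the widest differences, while cytosolic Shmt1 was level with its controls. Differences below are the mean log2(FPKM + 1) of the compound libraries minus that of their DMSO libraries, a scale that understates the change of low genes. These are the values the members were chosen by, with no test.

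Pck2 was at 38.9, 39.0 and 41.7 FPKM in OB DMSO and at 62.5, 63.3 and 57.7 after compound OB. All 3 compound libraries lay above all 3 controls, and the ratio of the means was 1.53 (log2 difference 0.60). Within replicate numbers 1, 2 and 3 the log2 differences were 0.67, 0.68 and 0.46. Leaving out any single library kept the difference between 0.58 and 0.64.

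Shmt2 was at 203, 183 and 195 FPKM in OB DMSO and at 287, 279 and 255 after the compound. The groups again did not overlap, with a ratio of means of 1.41 (log2 difference 0.50) and 0.50, 0.61 and 0.39 within the replicate numbers. Leaving out any single library gave 0.46 to 0.55. Shmt1, which catalyses the same reaction in the cytosol, was at 30.5, 32.1 and 33.0 FPKM in the controls and 27.9, 32.1 and 33.8 with the compound (log2 difference -0.03). In the same libraries Shmt2 was thus higher without overlap, as were 5.31% of all genes, while the Shmt1 groups overlapped. The group was selected on the Shmt2 values, so nothing is read from this difference between the paralogs.

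In the serine synthesis branch, Phgdh, which commits the glycolytic intermediate to serine, was at 197, 236 and 254 FPKM in the controls and 249, 287 and 295 with compound OB (0.28). Psat1, the transaminase of the next step, was at 174, 284 and 308 and then 226, 306 and 328 (0.19). Psph, the phosphatase that releases serine, was at 45.2, 74.0 and 84.9 and then 66.0, 82.1 and 94.5 (0.28). All 3 genes were higher in each of the 3 replicate numbers, yet their groups overlapped. The replicate 1 libraries were the lowest of both arms in each gene. Within replicate numbers 1, 2 and 3 the differences were 0.38, 0.11 and 0.09 for Psat1 and 0.54, 0.15 and 0.15 for Psph. Without OB DMSO replicate 1 the group differences were 0.17 for Phgdh, -0.06 for Psat1 and 0.01 for Psph, and without OB DMSO replicate 2 they were 0.30, 0.29 and 0.36. Without both replicate 1 libraries, which keeps the same replicate numbers in both arms and was chosen after seeing the data, they were 0.25, 0.098 and 0.15. In that setting, which leaves fewer libraries to overlap, Phgdh no longer overlapped, while Psat1 and Psph still did. Mthfd1, Mthfd1l, Shmt2 and Pck2 did not overlap there either. The share of all genes without overlap in that setting was not counted, so nothing is read from this.

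The folate enzymes differed among themselves. Mthfd2, the dehydrogenase that follows Shmt2 in mitochondria, was at 148, 209 and 223 FPKM in the controls and 169, 208 and 219 with compound OB (0.05, and -0.13 without OB DMSO replicate 1). Shmt2 and Mthfd2 act in sequence, and the Shmt2 to Mthfd2 ratio was 1.37, 0.88 and 0.87 in the controls against 1.70, 1.35 and 1.17 with the compound, higher in each replicate number but overlapping between groups. Mthfd1l, the mitochondrial formate synthetase, was at 58.1, 63.9 and 71.7 and then 67.8, 80.2 and 82.2 (0.25), and cytosolic Mthfd1 ranged from 155 to 183 in the controls and from 177 to 184 with the compound (0.12). Aldh1l2 was at 0.11, 0.36 and 0.42 FPKM and then 0.64, 1.05 and 0.93 (0.53). It was higher without overlap, but its mean over the 6 libraries is under the 1 FPKM minimum set for testing, and the number of fragments behind it is unknown.

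**Figure D2:**
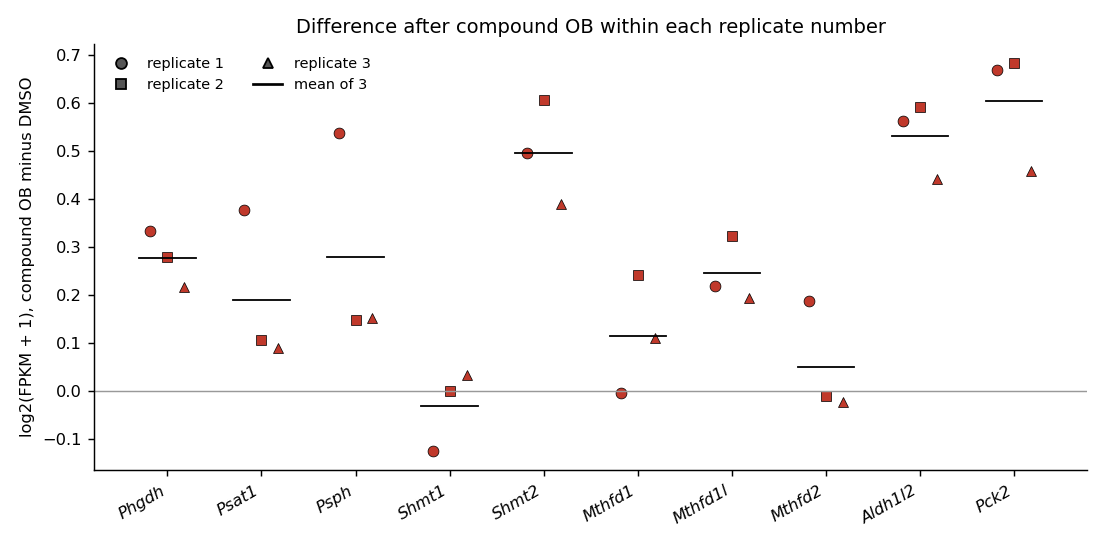
Compound OB minus DMSO in log2(FPKM + 1) for each gene, within each replicate number (symbols), with the mean of the 3 (lines). Pck2, Aldh1l2 and Shmt2 have all 3 symbols at 0.39 or higher, and Psat1 and Psph have replicate 1 well above the other 2.

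By count, 9 of the 10 members passed the minimum mean of 1 FPKM in each set, and 8 of those 9 had a log2 difference above 0 after compound OB. Of all 10073 genes over that minimum, 58.7% were above 0. The members' median was 0.25, and that of all genes 0.03. Without OB DMSO replicate 1, 6 of the 9 were above 0 (57.4% of all genes) and their median was 0.17. Without both replicate 1 libraries 8 of the 9 were above 0 (62.9% of all genes), with a median of 0.18. Shmt2 and Pck2 had all 3 compound libraries above all 3 controls, and 5.31% of all genes did, with 3.42% below in the same way. Nothing is read from these counts, since the members were selected on this contrast. Over all genes, limma with Benjamini-Hochberg adjustment called 0% of the genes at an adjusted p of 0.05 (0 of 10073, with 372 at an unadjusted p under 0.05), and 7 genes with the replicate number as a block. The neutrophil list, which was low in the OB set, summed to 144 to 578 FPKM in the controls and 164 to 483 with compound OB, with 2 of 9 genes higher. Of the 12 early erythroid progenitor genes 10 had higher means with compound OB, among them Kit, the receptor for stem cell factor, at 23.1 to 25.9 FPKM in the controls and 36.0 to 41.7 with the compound, while the summed level of the list was 1703 to 1872 and 1791 to 1829. None of the 6 megakaryocyte genes (474 to 1338 against 569 to 953 summed) and none of the 6 mast cell and basophil genes (6.96 to 27.7 against 7.19 to 11.3) had a higher mean. In these lists and the neutrophil list replicate 1 had the highest sum of each arm, and the counts of genes include it. The other libraries summed to 474 and 557 in the controls against 569 and 612 for the megakaryocyte list. These sums were 144 and 145 against 164 and 179 for the neutrophil list, and 6.96 and 8.65 against 7.19 and 8.42 for the mast cell list. Myc, looked up after the data were seen, was at 71.8 to 85.3 FPKM in the controls and 93.5 to 111 with compound OB. The part of these differences in the members' values was not tested.

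Compound PD is the contrast that did not choose the members. No member passed the test there (limma on log2(FPKM + 1), adjusted p over all 11887 genes tested), and 8 of the 9 tested had negative differences, Mthfd2 and Shmt2 the most. Because these are bulk samples, fewer cells of a type and less RNA per cell cannot be told apart.

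Mthfd2 was at 153, 152 and 163 FPKM in PD DMSO and at 108, 128 and 131 after compound PD. Every compound library lay below every control, with a ratio of means of 0.785 and a log2 difference of -0.35 (SE 0.15). In limma the unadjusted p was 0.038 and the adjusted p 0.428, so Mthfd2 alone among the members was under an unadjusted 0.05, and it was not called. Over the alternative settings its adjusted p ranged from 0.150 to 0.987. Without compound PD replicate 1, its lowest library, the difference was -0.26 and the limma adjusted p 0.987.

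Shmt2 was at 167, 197 and 206 FPKM in the controls and 150, 161 and 163 with compound PD. The groups did not overlap, with the lowest control close to the highest compound library, and the difference was -0.26 (SE 0.14, limma adjusted p 0.610). Pck2 was at 83.9, 69.5 and 83.1 and then 57.0, 72.1 and 69.2. Its groups overlapped, and its difference was -0.25 (SE 0.16, limma adjusted p 0.689). Without compound PD replicate 1, the lowest library of the set in both genes, the differences were -0.22 for Shmt2 and -0.15 for Pck2. Shmt1 was the sole tested member with a positive difference (0.07, SE 0.40), from 5.57, 14.9 and 21.0 FPKM in the controls to 11.6, 16.1 and 11.4, and its sign turned with scaling, to -0.0078 with median-ratio scaling and -0.046 with quantile normalization.

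The serine synthesis genes overlapped between the groups. Phgdh was at 86.1, 140 and 132 FPKM in PD DMSO and at 112, 115 and 112 with the compound (-0.05, SE 0.20). Psat1 was at 73.6, 124 and 119 and then 90.8, 96.7 and 103 (-0.09, SE 0.21). In both, the 3 compound libraries lay between the low control replicate 1 and the other 2 controls. Psph ranged from 27.2 to 30.6 in the controls and was at 17.4, 29.3 and 30.3 with the compound (-0.20, SE 0.22), and its difference was 0.051 without the first of these.

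Mthfd1 and Mthfd1l had the same shape as Phgdh. Mthfd1 was at 52.2, 108 and 105 FPKM and then 62.8, 78.2 and 80.2 (-0.19, SE 0.27), and Mthfd1l at 29.2, 49.4 and 49.3 and then 36.2, 37.1 and 37.9 (-0.16, SE 0.22). PD DMSO replicate 1 was the lowest of all 6 libraries in each. Aldh1l2 was listed at 0.24 FPKM or less in all 6 libraries and was not tested. The limma adjusted p of the other members ranged from 0.884 for Psph to 0.981 for Shmt1.

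Leaving out PD DMSO replicate 1, the library with low Myb and high globin, lowered the estimates of all tested members but Pck2. Those of Mthfd2 (-0.352 to -0.366) and Psph (-0.198 to -0.204) hardly moved. The difference was then -0.53 for Mthfd1 (SE 0.13, limma adjusted p 0.095), -0.43 for Shmt1 (0.320), -0.40 for Mthfd1l (0.102), -0.37 for Mthfd2 (0.150) and -0.35 for Shmt2 (0.10). It was -0.32 for Psat1 (limma adjusted p 0.138), -0.26 for Phgdh (0.162), -0.21 for Pck2 (0.465) and -0.20 for Psph (0.693). All 9 were then below 0, beside 53% of all genes, and the median of all genes went from 0.06 to -0.02. An unadjusted p under 0.05 was found for 6 of the 9 and for 20% of all genes (2386 of 11941). None of the members was called, while the genes called over the whole set went from 3 to 167 (1.4%). Without PD DMSO replicate 2, or without replicate 3, 6 of the 9 were below 0. Without compound PD replicate 1, 7 of the 9 were below 0, beside 44.3% of all genes. The members' median was then -0.08, against -0.19 with all libraries, and no member was called.

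**Figure D3:**
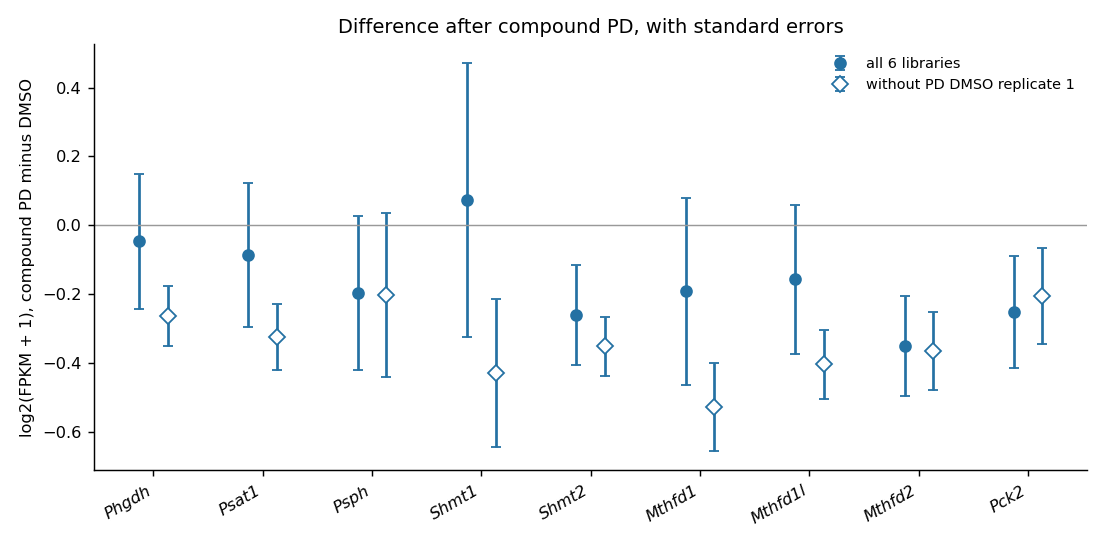
Compound PD minus DMSO in log2(FPKM + 1) with its limma standard error for the 9 tested genes, with all 6 libraries (filled) and without PD DMSO replicate 1 (open). All estimates but that of Shmt1 lie below 0 with all libraries, and all 9 do without that library, with Mthfd1 lowest at -0.53.

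Set against all genes, 0 of the 9 members were called, and 0.0252% of all genes were (3 of 11887, with 1268 at an unadjusted p under 0.05). A difference below 0 was found in 8 of 9 members and in 40.9% of all genes. Mthfd2 and Shmt2, 2 of 9, had every compound library below every control, which 3.72% of all genes had, and no member had the reverse, which 13.1% had. Without PD DMSO replicate 1, when only 2 controls have to lie above, 6 of 9 members and 20.8% of all genes lay wholly below. Of the 9, 5 had every compound OB library above and every compound PD library below the mean of its DMSO libraries, as did 5.23% of the 9255 genes tested in both sets. The members' counts are a description of a group chosen with results of the other compound in view, and whether the compounds differ in their effect on these genes was not tested, since one side of that difference chose them.

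Markers of other blood cells had higher levels with compound PD in the same libraries. All 9 neutrophil and granulocyte precursor genes had higher means, with a summed level of 11362 to 17167 FPKM in the controls and 29072 to 36521 with the compound. S100a8 and S100a9 made up most of each sum. For Mpo and Ctsg the higher mean came from compound PD replicate 1, at 933 and 258 FPKM. In the other compound libraries Mpo was at 463 and 422, against 428 to 560 in the controls. Ctsg was at 128 and 131 there, against 133 to 188 in the controls. All 6 megakaryocyte genes were higher (2267 to 4489 against 4141 to 7373 FPKM), as were 4 of 6 mast cell and basophil genes (771 to 1550 against 1363 to 2769) and 4 of 8 macrophage genes (12.1 to 23.0 against 23.8 to 30.5, with 5 of the 8 under 1 FPKM in every library of each group). The 12 early erythroid progenitor genes summed to 1666 to 2050 FPKM in the controls and 1553 to 1632 with the compound, with 4 of 12 higher. The part of these cells in the lower values of the members was not tested.

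**Figure D4:**
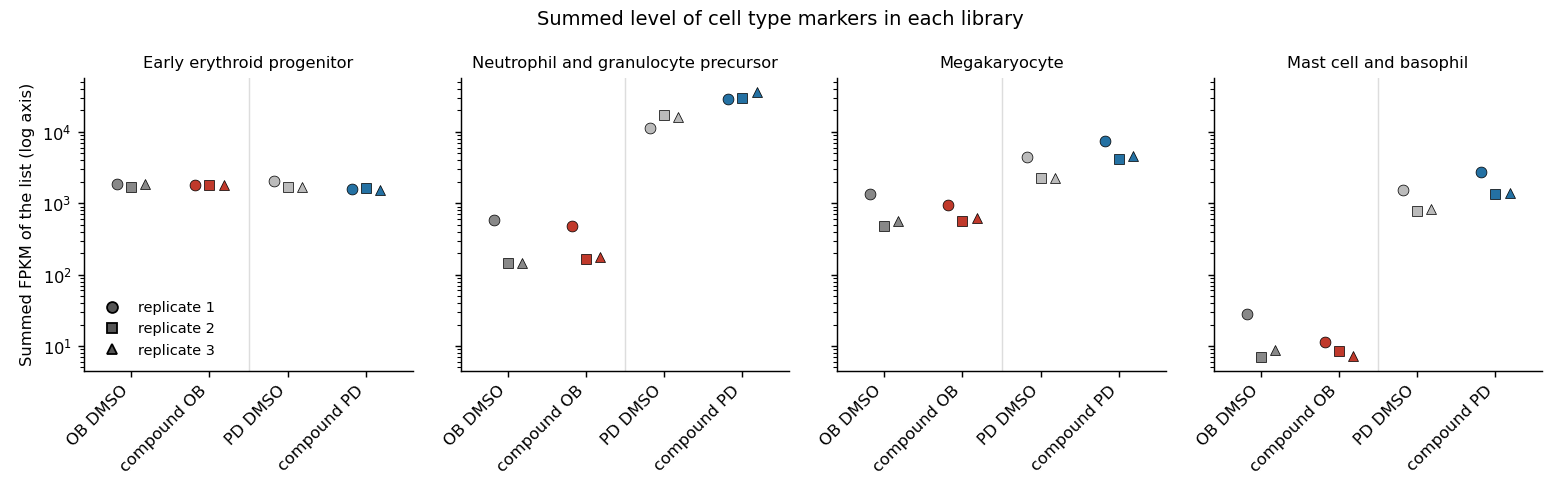
Summed FPKM of 4 marker lists (12, 9, 6 and 6 genes, log axis) in each library of the 4 groups, with symbols for the replicate number. The neutrophil list sums to 29072 to 36521 after compound PD, above 11362 to 17167 in PD DMSO, while the erythroid progenitor list stays between 1553 and 2050 in all groups.

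The wider pathway was followed with 82 further genes in 8 lists, of which 71 were tested in each set. In limma with adjustment over all genes 0 of the 71 were called after compound OB (9 at an unadjusted p under 0.05) and 0 of the 71 after compound PD (4 at an unadjusted p under 0.05). With the replicate number as a block and both replicate 1 libraries of the OB set left out, 19 of 70 were called after compound OB, beside 11.4% of all genes (1133 of 9967), a setting chosen after seeing the data. The ATF4 list holds ATF4, its partners and known targets such as Asns, Trib3 and Chac1, and was chosen with earlier results of these data known. It had 12 of 12 genes above 0 after compound OB with a median of 0.22, beside 58.7% of all genes. Without OB DMSO replicate 1 it had 10 of 12, beside 57.4% of all genes. Of the list, Atf3, Trib3 and Chac1 alone had groups that did not overlap, with every compound library higher, as 5.31% of all genes had. After compound PD 2 of 11 were above 0, with a median of -0.15, beside 59.1% of all genes. Without PD DMSO replicate 1 these were 7 of 11, with a median of 0.18, beside 47.0% of all genes. Chac1, which degrades glutathione, was at 9.91 ± 1.53 FPKM (SD, n = 3) in the OB controls and 16.1 ± 1.33 under compound OB, a log2 difference of 0.66 (limma adjusted p 0.588).

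With all libraries, the other lists had medians closer to 0 than the ATF4 list. This did not hold without PD DMSO replicate 1, as for purine synthesis below. Folate uptake and cycle genes were above 0 in 5 of 11 after compound OB (median -0.01) and 6 of 12 after compound PD (0.01). Purine synthesis, which takes up formate through folate, had 5 of 8 above 0 after compound OB (0.07) and 1 of 8 after compound PD (-0.08, with 0 of 8 and -0.38 without PD DMSO replicate 1). Glycine cleavage, which also loads folate in mitochondria, had 1 of 2 and 2 of 2 genes above 0, and the NADPH and glutathione list 6 of 8 (0.02) and 5 of 8 (0.14).

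Serine transport and use genes were above 0 in 9 of 11 after compound OB (0.10) and 5 of 11 after compound PD (-0.07). In that list Ptdss2, a phosphatidylserine synthase, was at 91.0 ± 19.1 FPKM in PD DMSO and 55.9 ± 14.6 with compound PD (-0.70, limma adjusted p 0.296), and Sptlc2, a subunit of the enzyme that starts sphingolipid synthesis from serine, was at 25.9 ± 1.85 and 37.4 ± 0.68 (0.52, limma adjusted p 0.246). The methionine cycle and transsulfuration list was above 0 in 6 of 7 (0.15) and 4 of 7 (0.03). Its largest difference was that of Cth, which makes cysteine from cystathionine, at 15.7 ± 9.92 FPKM in OB DMSO and 47.6 ± 14.6 with compound OB (1.75, limma adjusted p 1.00). The Cth groups did not overlap, but its controls ranged from 4.60 to 23.6 FPKM.

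Around Pck2, the list of phosphoenolpyruvate, pyruvate and malate enzymes had 6 of 12 genes above 0 after compound OB (-0.02) and 4 of 12 after compound PD (-0.07). Pkm, a pyruvate kinase that consumes phosphoenolpyruvate, was at 504 ± 119 FPKM in OB DMSO and 283 ± 39.3 with compound OB (-0.81, limma adjusted p 0.776). It was at 215 ± 14.4 in PD DMSO and 363 ± 76.3 with compound PD (0.73, limma adjusted p 0.168). The groups did not overlap in either set, and neither difference was called. Without PD DMSO replicate 1 the median of all genes after compound PD went from 0.06 to -0.02, and the medians of these lists were -0.24 for folate uptake and cycle (5 of 12 above 0), -0.13 for glycine cleavage (0 of 2), -0.19 for the methionine list (1 of 7), -0.19 for serine transport and use (2 of 11), -0.21 for the phosphoenolpyruvate list (2 of 12) and 0.11 for the NADPH list (5 of 8). Without OB DMSO replicate 1 the medians after compound OB turned to -0.02 for purine synthesis, -0.05 for glycine cleavage, 0.0028 for folate uptake and cycle and 0.12 for the phosphoenolpyruvate list.

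Genes whose pattern lay closest to those of Shmt2 and Pck2 were ranked by the root mean square difference of log2(FPKM + 1), centred within each set, over the 12 libraries and 7183 genes whose mean reached 5 FPKM in both sets. Closest to Shmt2 were Aldh18a1 (0.10), Mbtps1 (0.11), Eef2 (0.11), Llgl1 (0.12) and Lpin1 (0.12), against a median of 0.27 over all genes. Closest to Pck2 were Shmt2 (0.13), Eef2k (0.14), Ifrd2 (0.14), Slc3a2 (0.15) and Cyb5r1 (0.15), against a median of 0.33. The compound OB values that both genes were selected on are part of this measure, so the nearness of Shmt2 and Pck2 is no finding. Shmt2 was 1st from Pck2 but 13th without OB DMSO replicate 1, and Pck2 was 15th from Shmt2 and 73rd without that library. Without PD DMSO replicate 1, a setting chosen after seeing the data, 1 of the 5 genes named for Shmt2 and 2 of the 5 for Pck2 remained, and without OB DMSO replicate 1 these were 4 and 1.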

How the data were processed

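RNA levels of 12 libraries in 4 groups of 3 were analysed. The authors deposited FPKM values with 2 decimals for each gene and library. STAR aligned the reads to mm10, per the submitters' processing notes. What computed FPKM, with which gene models and whether by strand, is not given in the sources used here. OB files listed 24054 genes and PD files 54752. Genes whose name was split at a hyphen (428, OB set), turned into a date (27 in each set) or repeated (185, PD set) were left out, and no member was among them. Depth is unknown: no step of whole reads was found, since the commonest ratio between 2 libraries held at most 7.71% of low values (bins of 0.05 on the log2 scale), and precision is the spread over 3 libraries.

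Compound and matching DMSO libraries were compared by limma 3.58.1 (R 4.3.3, statmod 1.5.0) on log2(FPKM + 1). The variance prior followed a trend over the mean level and was estimated robustly, and genes averaging under 1 FPKM in the set were dropped. P-values were two-sided with Benjamini-Hochberg adjustment over all genes tested, and the threshold was 0.05. The code was tested on simulated data. In the OB set the deviations of same-numbered libraries from their group means correlated at 0.83, 0.43 and 0.65. Between numbers 2 and 3 they correlated at 0.41 and 0.33, and between number 1 and the others at -0.71 to -0.54. Replicate 1 was thus set apart in both arms, while pairing of numbers 2 and 3 is less clear. In the PD set the numbers did not pair the samples (-0.01, -0.03 and -0.02). The members, the 8 related lists, the marker lists and the rules were chosen with earlier results of these data known. All 10 members are named. Of the related genes, those called are named, otherwise the 3 with the largest absolute difference at a mean of at least 5 FPKM in each set. For likeness the 5 nearest genes are named. Myc, Mki67 and Hbb-bt were looked up after the data were seen. Alternatives were other pseudocounts, filters, scalings and moderation, the block, a fit of all 12 libraries, and leaving out each library.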

Additional observations from a re-analysis of the deposited data

Results flagged for a closer look

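In 6 of the 10 members every compound OB library lay above the mean of its DMSO libraries and every compound PD library lay below the mean of its own. Among genes tested in both sets this was so for 5 of 9 members and 5.23% of 9255 genes, and nothing is read from that count, since compound OB chose the members. The log2 differences after compound OB and compound PD were 0.28 and -0.047 for Phgdh, 0.50 and -0.26 for Shmt2, 0.12 and -0.19 for Mthfd1, 0.25 and -0.16 for Mthfd1l, 0.53 and -0.15 for Aldh1l2, and 0.60 and -0.25 for Pck2. The difference between the compounds was not tested, and the members were selected on the values of compound OB. For Phgdh, Mthfd1 and Mthfd1l the DMSO mean of the PD set includes the low replicate 1 library, which lies below all 3 compound libraries. Compound, dose and set cannot be told apart here.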

How the results depend on the processing

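Of the values of members after compound PD under the alternatives, 117 kept their direction and stayed uncalled and 9 turned sign. Leaving out 1 library gave Phgdh values from -0.26 (without PD DMSO replicate 1) to 0.083 (without replicate 2), with 0.040 without replicate 3. Psat1 ranged from -0.32 to 0.047 in the same way, with 0.018 without replicate 3. Psph ranged from -0.33 without compound PD replicate 3 to 0.051 without compound PD replicate 1. Shmt1 was -0.0078 with median-ratio scaling and -0.046 with quantile normalization, and ranged from -0.43 without PD DMSO replicate 1 to 0.44 without PD DMSO replicate 3, with -0.078 without compound PD replicate 2. After compound OB, 6 of the 153 values of members turned sign: Psat1 was -0.063 and Mthfd2 -0.13 without OB DMSO replicate 1, Mthfd2 -0.024 without compound OB replicate 3, Shmt1 0.048 without compound OB replicate 1, and with the replicate block and without replicate 1 Mthfd2 was -0.017 and Shmt1 0.017. These moved by less than the spread within groups, as did all but 1 of the 153. The members wholly below their controls after compound PD numbered 2 to 6 when 1 library was left out.

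Over all genes, 3 were called after compound PD, 0 with no filter on low values (genes above 0 in at least 1 library), 0 with no trend and no robust moderation, 29 in one fit of all 12 libraries, and 0 to 167 when a library was left out, 167 being without PD DMSO replicate 1. After compound OB the fit of all 12 libraries called 1, and leaving out a library gave 0 to 14, 14 being without OB DMSO replicate 1. With the replicate block, 7 genes were called after compound OB and 41 after compound PD, where the numbers did not pair the samples. The block called no member after compound PD. The block without both libraries of a replicate number, chosen after seeing the data, called 1133, 146 and 3 genes after compound OB without numbers 1, 2 and 3, and it called 19 of 70 related genes without number 1 and 3 of 71 without number 2. The causes were not tested. Without counts, how far depth limits the low values of Aldh1l2 cannot be given.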

Other observations

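The ratio of Pck2, which makes phosphoenolpyruvate, to Pkm, a pyruvate kinase that consumes it, was looked at after the values were seen and has no test. Pklr, another pyruvate kinase, is not part of this ratio. Its level was 225 ± 23.0 FPKM (SD, n = 3) in OB DMSO and 258 ± 16.9 after compound OB (log2 difference 0.20). In the PD set Pklr was at 121 ± 16.7 in the controls and 115 ± 22.8 after compound PD (-0.08). The Pklr groups overlapped in both sets. The Pck2 to Pkm ratio of FPKM was 0.095, 0.084 and 0.065 in OB DMSO and 0.222, 0.259 and 0.179 after compound OB. In the PD set it was 0.419, 0.320 and 0.363 in the controls and 0.126, 0.226 and 0.217 after compound PD. The groups did not overlap in either set, and the ratio was higher with compound OB and lower with compound PD. Pkm differed in the opposite direction from Pck2 in both sets, and by more. Its log2 difference was -0.81 beside 0.60 for Pck2 after compound OB, and 0.73 beside -0.25 after compound PD. The Pck2 groups overlapped in the PD set, and the group was selected on the Pck2 values after compound OB. The ratio of 0.126 was that of compound PD replicate 1, a library that stands apart, with Pkm at 452 FPKM against 320 and 319.

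The ratio between Psat1 and Phgdh, of the first steps of serine synthesis, has no test, and its spread was not set against that of all gene pairs. The Psat1 to Phgdh ratio was between 0.855 and 0.902 in PD DMSO and between 0.811 and 0.920 after compound PD, although both genes were low in PD DMSO replicate 1. In the OB set it was 0.883 in DMSO replicate 1 and 0.910 in compound OB replicate 1, the libraries with high Cdkn1a, and 1.07 to 1.21 in the other 4. Mki67, a gene of dividing cells, was at 101 and 97.3 FPKM in those 2 libraries and at 171 to 200 FPKM in the other 4. A link between the ratio and either gene was not tested.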
